A study of Mus musculus with 6 samples.

Results

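The genes described here are 30 genes of cholesterol and fatty acid synthesis, taken as a list of gene symbols. They comprise 18 enzymes of the sterol branch, 8 enzymes of the fatty acid branch, and 4 genes that belong to neither: the transcription factor genes Srebf1 and Srebf2, their inhibitor Insig1 and the sterol carrier gene Stard4. A member was read from probe sets annotated with its symbol alone, and where there were several, from the one with the highest mean. This found 29 of the 30 members among 19938 genes. The sterol enzyme gene Acat2 had no such probe set, so 17 sterol enzymes were measured. All 29 lay above the filter on low signal, a mean log2 level of 5.209, and belong to the 14953 genes that were tested.

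The cells were fibro/adipogenic progenitors (FAPs), mesenchymal cells of skeletal muscle that can give rise to fibroblasts and adipocytes, taken from male wild-type C57Bl/6 mice of 8 to 12 weeks. In all 3 groups the tibialis anterior had been injured with 30 µL of 50% glycerol, and a vivo-morpholino (VMO), an antisense oligomer that blocks a site on an RNA in the animal, followed 3 days later. The groups received control VMO, VMOs that block polyadenylation sites (pA-VMO) or one that blocks a 5' splice site (5'ss-VMO), and the cells were isolated 2 days after that. Each group had 2 Affymetrix Mouse Gene 1.0 ST arrays, and each array held RNA of cells pooled from 4 mice, so single animals cannot be seen. The series concerns intronic polyadenylation of the transcript of Pdgfra, a growth factor receptor that marks FAPs. Pdgfra was read here as 1 value per array, which cannot tell its transcripts apart, so it checks neither reagent. Its log2 level ran from 11.24 to 11.37 over the 6 arrays.

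Cholesterol is built from acetyl units through mevalonate, farnesyl diphosphate, squalene and lanosterol, and fatty acids are built from the same acetyl units by acetyl-CoA carboxylase and fatty acid synthase, then lengthened and desaturated. When sterols in the endoplasmic reticulum run low, an escort protein carries SREBP proteins to the Golgi, where proteases cut free the part that enters the nucleus and switches on genes of both branches; SREBP-2, encoded by Srebf2, acts mainly on sterol genes and SREBP-1c, from Srebf1, mainly on fatty acid genes. Insig proteins hold this system back. Liver X receptors (LXRs), which sense oxidised sterols, act in the other direction on sterol balance by inducing the exporters Abca1 and Abcg1, and they also induce Srebf1 and Scd1.

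SREBPs act on promoters together with NF-Y, which binds CCAAT boxes, and with Sp1, which binds GC boxes, and these boxes were looked up in the members' promoters. RefSeq promoter windows (GRCm38.p6) were matched by symbol for 22 of the 29 members, and the 250 bases before each start were searched on both strands for the NF-Y box CCAAT, the GC box GGGCGG, the E box CACGTG and the sterol regulatory element form TCACNCCAC. Shown are the 150 bases before the start, 5' to 3' on the gene's strand, for the 4 sterol and the 2 fatty acid enzymes that differed most between pA-VMO and control VMO among those with a window. They lie at chr5:4104698-4104847 (minus strand) for Cyp51, chr13:8885456-8885605 (plus strand) for Idi1, chr13:119690201-119690350 (plus strand) for Hmgcs1, chr8:64733579-64733728 (minus strand) for Msmo1, chr19:10101504-10101653 (minus strand) for Fads2, chr11:120824548-120824697 (minus strand) for Fasn. Capitals mark matches of any of the motifs, on either strand.
Cyp51: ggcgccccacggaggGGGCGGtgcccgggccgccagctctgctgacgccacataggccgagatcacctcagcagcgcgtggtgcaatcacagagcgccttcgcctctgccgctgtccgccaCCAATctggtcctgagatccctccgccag
Idi1: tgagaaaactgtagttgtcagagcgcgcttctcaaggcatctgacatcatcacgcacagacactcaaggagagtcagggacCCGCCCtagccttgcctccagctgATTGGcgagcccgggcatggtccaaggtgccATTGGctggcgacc
Hmgcs1: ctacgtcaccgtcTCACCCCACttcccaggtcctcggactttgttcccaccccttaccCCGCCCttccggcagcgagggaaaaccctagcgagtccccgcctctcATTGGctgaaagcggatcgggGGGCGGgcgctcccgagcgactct
Msmo1: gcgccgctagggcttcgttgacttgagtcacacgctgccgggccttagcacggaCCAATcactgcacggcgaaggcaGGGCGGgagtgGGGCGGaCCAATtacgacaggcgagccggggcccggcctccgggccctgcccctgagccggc
Fads2: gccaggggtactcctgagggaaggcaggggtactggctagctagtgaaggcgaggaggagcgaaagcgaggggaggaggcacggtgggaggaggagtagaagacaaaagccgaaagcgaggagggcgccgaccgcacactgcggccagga
Fasn: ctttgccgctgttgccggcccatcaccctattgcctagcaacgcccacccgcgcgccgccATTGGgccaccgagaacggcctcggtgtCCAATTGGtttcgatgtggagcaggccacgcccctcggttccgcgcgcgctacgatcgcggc
A CCAAT box was found in 14 of 14 sterol enzymes with a window, among them Cyp51, Idi1, Hmgcs1 and Msmo1 above, in 1 of 5 fatty acid enzymes (Fasn) and in Insig1, Srebf1 and Srebf2, against 38.7% of the 11784 tested genes with a window and 33.9% of all 32851 windows. In Fasn 2 of the boxes overlap on opposite strands, in the run CCAATTGG. A GC box was found in 13 of the 14 sterol enzymes and 2 of the 5 fatty acid enzymes, against 59.3% of those tested genes and 32.7% of all windows. The letters TCACNCCAC were found in Hmgcs1, from -137 to -129, as TCACCCCAC, and in no other member with a window, against 1.25% of tested genes and 1.05% of windows. CACGTG was found in 3 of the 14 sterol enzymes, in Insig1 and in 0 of the 5 fatty acid enzymes, against 9.31% and 6.02%. A match is a run of letters and not a site of binding, and the share of genes with a box depends on how many windows a gene has.

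No member passed the test in any comparison. Between pA-VMO and control VMO 0 of 29 members had an adjusted p under 0.05 in limma, a linear model that shares the estimate of the spread across genes, with Benjamini-Hochberg adjustment over all genes tested and two-sided; 0.00669% of all genes did. At an unadjusted p under 0.05, 8 members lay higher and 2 lower with pA-VMO, or 27.6% and 6.90% of them, against 6.22% and 5.23% of all genes. Both pA-VMO arrays lay above both control arrays for 14 members (48.3%) and below for 5 (17.2%), against 24.1% and 18.8% of all genes. So members above control were more frequent than genes at large by both counts, while those below were slightly more frequent by p and slightly less by array overlap. The members had been chosen with earlier results of these data known, so no test is given for these shares.

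With 5'ss-VMO the share above both control arrays was nearer the background than with pA-VMO, and the share below both was farther under it. Again 0 of 29 members passed (limma), where 0.582% of all genes did. At an unadjusted p under 0.05 there were 4 members above control (13.8%) and 2 below (6.90%), against 7.72% and 6.19% of all genes. The arrays did not overlap for 6 members above (20.7%) and 4 below (13.8%) control, against 23.2% and 21.5% of all genes. Between pA-VMO and 5'ss-VMO 0 of 29 members passed, against 0.0602% of all genes, and 0 had an unadjusted p under 0.05 in either direction, against 8.81% and 7.11%. Values below are therefore given as measured differences that did not pass the test, with the standard error (SE) from limma and n = 2 arrays per group. The comparisons with control share the same 2 control arrays. Since these are RMA values of sorted pools, fewer cells of a type and less RNA per cell cannot be told apart.

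In the first part of the sterol branch, 4 of 6 enzymes (66.7%) lay above control on both pA-VMO arrays, against 24.1% of all genes, 3 of them by over 0.3. The mevalonate kinases overlapped with control in that comparison. With 5'ss-VMO 1 of the 6 lay above control on both arrays (16.7%, against 23.2% of all genes). This part was grouped after values had been seen, so these shares describe it and test nothing. Hmgcs1, which makes the HMG-CoA from which mevalonate is formed, had log2 levels of 8.76 and 8.63 with control VMO, 9.03 and 9.09 with pA-VMO, and 8.74 and 9.05 with 5'ss-VMO. Its pA-VMO arrays thus lay above all control values, and its 5'ss-VMO arrays were split, one at the control level and one at the pA-VMO level. The difference from control was 0.36 ± 0.10 (log2, SE; 1.29-fold) with pA-VMO (limma adjusted p = 0.278) and 0.20 ± 0.10 with 5'ss-VMO (limma adjusted p = 0.417). Idi1, which isomerises isopentenyl diphosphate, lay at 5.85 and 5.72 with control VMO, 6.25 and 6.19 with pA-VMO, and 5.78 and 6.19 with 5'ss-VMO. It showed the same split of the 5'ss-VMO arrays, and its difference was 0.43 ± 0.12 (1.35-fold, limma adjusted p = 0.275) with pA-VMO and 0.20 ± 0.12 in the 5'ss-VMO group (limma adjusted p = 0.505). A further probe set of Idi1 gave 0.32 and 0.03 for these differences, so the value with 5'ss-VMO depended on the probe set.

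Fdps, which makes farnesyl diphosphate, lay at 6.33 and 6.11 with control VMO, 6.74 and 6.61 with pA-VMO, and 6.27 and 6.67 with 5'ss-VMO. The pA-VMO arrays were the higher ones here too, with a difference of 0.46 ± 0.13 (1.37-fold, limma adjusted p = 0.278). With 5'ss-VMO the difference was 0.25 ± 0.13 (limma adjusted p = 0.421), and the single array that lay at the control level was again replicate 1. A smaller gap was seen for Mvd, which forms isopentenyl diphosphate. Mvd lay at 6.50 and 6.57 with control VMO, 6.72 and 6.60 with pA-VMO, and 6.57 and 6.46 with 5'ss-VMO. Its pA-VMO arrays lay just above the others, by 0.12 ± 0.075 against control (limma adjusted p = 0.562). The mevalonate kinase genes Mvk and Pmvk differed from control by 0.05 and -0.01 with pA-VMO and by -0.05 and 0.08 with 5'ss-VMO.

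The 3 enzymes that form squalene and lanosterol did not stand apart from control. With pA-VMO the squalene synthase gene Fdft1 differed by 0.07, the squalene epoxidase gene Sqle by 0.06 and the lanosterol synthase gene Lss by -0.06, with limma adjusted p values of 0.798 to 0.910. The groups overlapped for all 3 genes. A further probe set of Fdft1 gave 0.17 with pA-VMO and 0.15 in the 5'ss-VMO group, where the one used gave 0.065 and 0.049. Within the 5'ss-VMO group Fdft1 lay at 6.92 and 7.41 and Lss at 5.56 and 6.00, gaps wider than any difference between group means for these genes. The interval of each difference still allows sizeable changes: for Fdft1 with pA-VMO the 95% interval ran from -0.26 to 0.39.

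Among the 8 enzymes that turn lanosterol into cholesterol, Cyp51 and Msmo1 had the largest differences, and the others lay within about 0.15 of control. Cyp51, the lanosterol 14-demethylase, lay at 7.31 and 6.86 with control VMO, 7.75 and 7.66 with pA-VMO, and 7.39 and 7.82 with 5'ss-VMO. All 4 treated arrays lay above both control arrays, but the control arrays themselves were 0.46 apart. The difference was 0.62 ± 0.16 (1.53-fold, limma adjusted p = 0.252) with pA-VMO and 0.52 ± 0.16 (1.43-fold, limma adjusted p = 0.223) with 5'ss-VMO. The pA-VMO value was 0.39 without control replicate 2 and 0.85 without control replicate 1, and the 5'ss-VMO value 0.29 and 0.75, so a control array decides its size. Msmo1, the methylsterol monooxygenase that acts on the 4-methyl groups, lay at 7.30 on both control arrays, 7.65 and 7.56 with pA-VMO, and 7.41 and 7.79 with 5'ss-VMO. Its differences were 0.30 ± 0.11 (1.24-fold, limma adjusted p = 0.367) with pA-VMO and 0.30 ± 0.11 (limma adjusted p = 0.293) with 5'ss-VMO, the latter going to 0.11 if replicate 2 of that group is left out and to 0.49 if replicate 1 is.

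The remaining late enzymes differed little from control, in either direction. Tm7sf2, a sterol C14 reductase, lay at 5.45 and 5.51 with control VMO, 5.39 and 5.27 with pA-VMO, and 5.39 and 5.27 with 5'ss-VMO. It lay below both control arrays on all 4 treated arrays, by 0.15 ± 0.07 on the log2 scale in each group's mean (limma adjusted p = 0.481 and 0.401). Sc5d, the sterol C5 desaturase, was also below control on all 4 treated arrays, at -0.06 with each treatment. Ebp, the sterol isomerase, differed by -0.05 and -0.09, Nsdhl and Hsd17b7, which take part in removing the C4 methyl groups, by 0.04 and 0.08 with pA-VMO and by 0.10 and 0.03 with 5'ss-VMO. Hsd17b7 lay above both control arrays on all 4 treated arrays, and Nsdhl on both pA-VMO arrays, but the nearest arrays were almost level. Hsd17b7 lay at 7.410 on 5'ss-VMO replicate 1 and 7.406 on control replicate 1. Nsdhl lay at 7.136 on pA-VMO replicate 1 and 7.133 on control replicate 1. Dhcr7, the last reductase, was spread within every group, from 6.83 to 7.24 with pA-VMO, and differed by 0.07 and 0.06. Over the whole sterol branch with pA-VMO, 8 of 17 enzymes lay above both control arrays (47.1%, against 24.1% of all genes) and 2 below (11.8%, against 18.8%). With 5'ss-VMO 4 of 17 lay above (23.5%, against 23.2% of all genes) and 2 below (11.8%, against 21.5%), so the share above was that of genes at large.

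**Figure D1:**
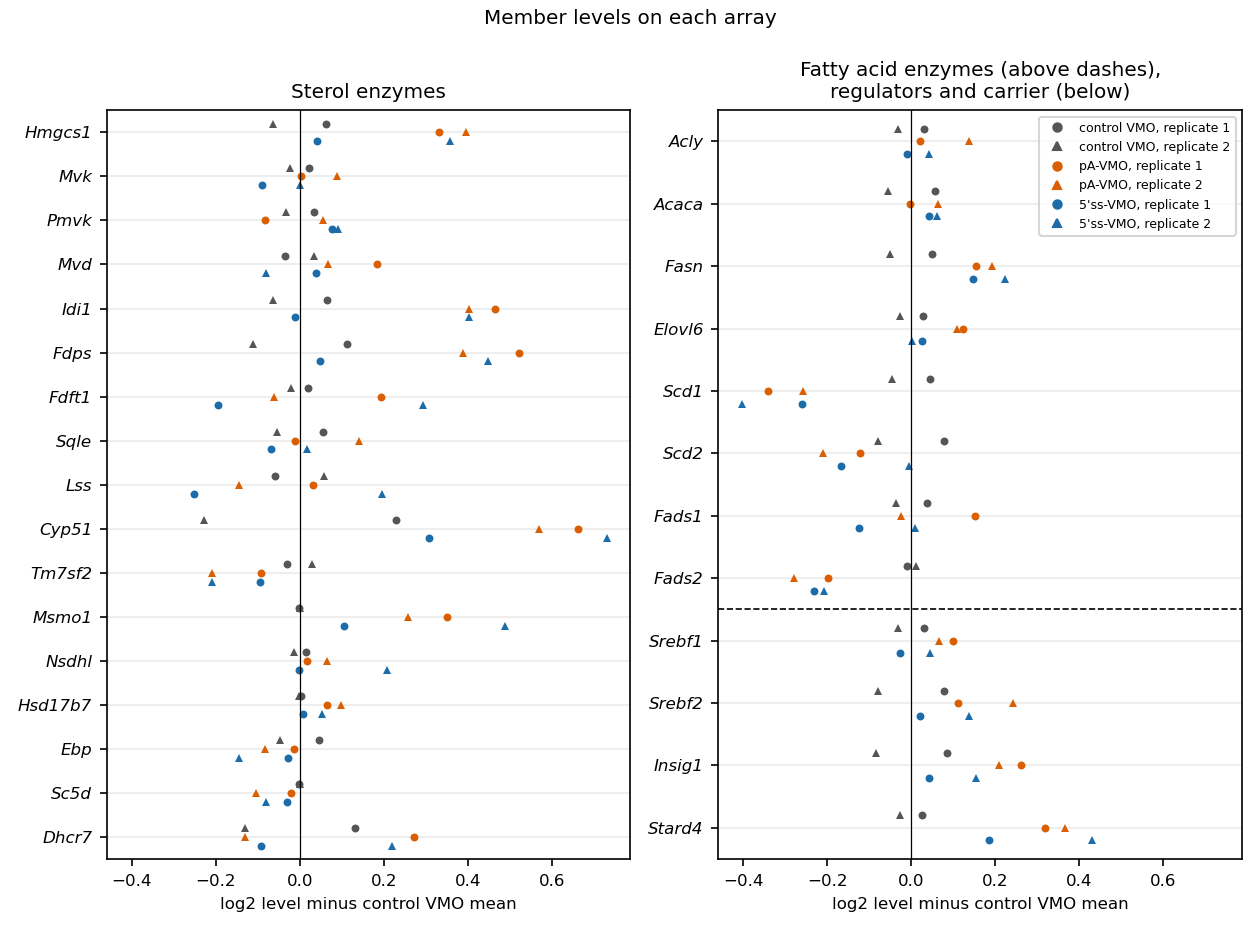
Each point is the log2 level of 1 member on 1 array minus the mean of the 2 control VMO arrays for that gene; colours are groups, circles are replicate 1 and triangles replicate 2. Both pA-VMO points of Hmgcs1, Idi1, Fdps, Cyp51, Msmo1 and Stard4 lie to the right of control, the 5'ss-VMO circles of Hmgcs1, Idi1 and Fdps lie within the control range, and all treated points of Scd1 and Fads2 lie to the left.

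In the fatty acid branch Fasn lay above control and Scd1 and Fads2 below it on all 4 treated arrays, and the other enzymes overlapped with control in at least 1 comparison. Both pA-VMO arrays lay above both control arrays for 2 of the 8 enzymes and below for 3 (37.5%), against 24.1% and 18.8% of all genes. In the 5'ss-VMO group 1 of the 8 lay above (12.5%) and 2 below, against 23.2% and 21.5% of all genes. Fasn, fatty acid synthase, lay at 8.49 and 8.38 with control VMO, 8.59 and 8.63 with pA-VMO, and 8.58 and 8.66 with 5'ss-VMO. All treated arrays lay above both control arrays, by 0.17 ± 0.07 (1.13-fold, limma adjusted p = 0.395) with pA-VMO and 0.185 ± 0.069 (1.14-fold, limma adjusted p = 0.292) with 5'ss-VMO. Elovl6, which lengthens saturated chains, lay at 8.52 and 8.47 with control VMO, 8.62 and 8.60 with pA-VMO, and 8.52 and 8.50 with 5'ss-VMO. Its pA-VMO arrays lay above the other 4, by 0.12 ± 0.06 against control (limma adjusted p = 0.527). Acly, which supplies cytosolic acetyl-CoA to both branches, and Acaca, acetyl-CoA carboxylase, differed from control by 0.08 and 0.03 with pA-VMO and by 0.02 and 0.05 with 5'ss-VMO, with overlapping arrays. A further probe set of Acaca gave -0.05 for each of these comparisons.

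Scd1 and Fads2 lay below control on every treated array. Scd1, the stearoyl-CoA desaturase that makes monounsaturated fatty acids, lay at 9.93 and 9.84 with control VMO, 9.54 and 9.63 with pA-VMO, and 9.63 and 9.48 with 5'ss-VMO. The lower control array was above the highest treated array by more than the control arrays differed from each other. The difference was -0.30 ± 0.08 (1.23-fold lower, limma adjusted p = 0.251) with pA-VMO and -0.33 ± 0.08 (1.26-fold lower, limma adjusted p = 0.111) with 5'ss-VMO. With 5'ss-VMO it passed the threshold under 2 alternatives, at a limma adjusted p of 0.0478 with only genes above the median level tested and of 0.0153 with a spread that follows the level and resists outliers. With pA-VMO the lowest adjusted p over the alternatives was 0.0704. Fads2, the delta-6 desaturase of polyunsaturated fatty acids, lay at 9.03 and 9.05 with control VMO, 8.84 and 8.76 with pA-VMO, and 8.81 and 8.83 with 5'ss-VMO. Its 2 control arrays differed by 0.02, and it lay lower by a fold of 1.18 with pA-VMO (-0.239 ± 0.065, limma adjusted p = 0.267) and of 1.17 with 5'ss-VMO (-0.220 ± 0.065, limma adjusted p = 0.205).

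The paralogs of these desaturases were nearer to control. Scd2, a close paralog of Scd1 with 1 protein-coding gene between them on the chromosome, lay at 10.08 and 9.92 with control VMO, 9.88 and 9.79 with pA-VMO, and 9.84 and 10.00 with 5'ss-VMO. The pA-VMO arrays lay below control by a mean log2 difference of -0.17 ± 0.08 (limma adjusted p = 0.493), and the 5'ss-VMO arrays overlapped with control (-0.09). Fads1, the delta-5 desaturase and the direct neighbour of Fads2, differed by 0.06 with pA-VMO and by -0.06 in the 5'ss-VMO group, with overlap in both. Whether probes of Scd1 and Scd2 also read the other gene was not tested, and whether the paralogs differed from each other was not tested.

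The 2 SREBP genes, Insig1 and Stard4 all lay above control on both pA-VMO arrays (4 of 4, against 24.1% of all genes). Srebf1 lay at 7.46 and 7.40 with control VMO, 7.53 and 7.50 with pA-VMO, and 7.40 and 7.47 with 5'ss-VMO, a difference of 0.08 ± 0.07 with pA-VMO (limma adjusted p = 0.675). Srebf2 lay at 8.43 and 8.28 with control VMO, 8.47 and 8.60 with pA-VMO, and 8.38 and 8.49 with 5'ss-VMO, a difference of 0.18 ± 0.08 with pA-VMO (limma adjusted p = 0.464). For both genes the gap between pA-VMO and control was small and the 5'ss-VMO arrays overlapped with control. Insig1, which retains the SREBP escort complex and is itself an SREBP target, lay at 8.69 and 8.52 with control VMO, 8.86 and 8.81 with pA-VMO, and 8.65 and 8.76 with 5'ss-VMO. The difference was 0.24 ± 0.08 (1.18-fold, limma adjusted p = 0.333) with pA-VMO and 0.10 ± 0.08 in the 5'ss-VMO group (limma adjusted p = 0.618). Stard4, a cytosolic sterol carrier that is also an SREBP target, lay at 6.26 and 6.21 with control VMO, 6.55 and 6.60 with pA-VMO, and 6.42 and 6.66 with 5'ss-VMO. It was the 1 gene of these 4 above control on all treated arrays, by 0.34 ± 0.09 (1.27-fold, limma adjusted p = 0.251) with pA-VMO and 0.31 ± 0.09 (1.24-fold, limma adjusted p = 0.182) with 5'ss-VMO.

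**Figure D2:**
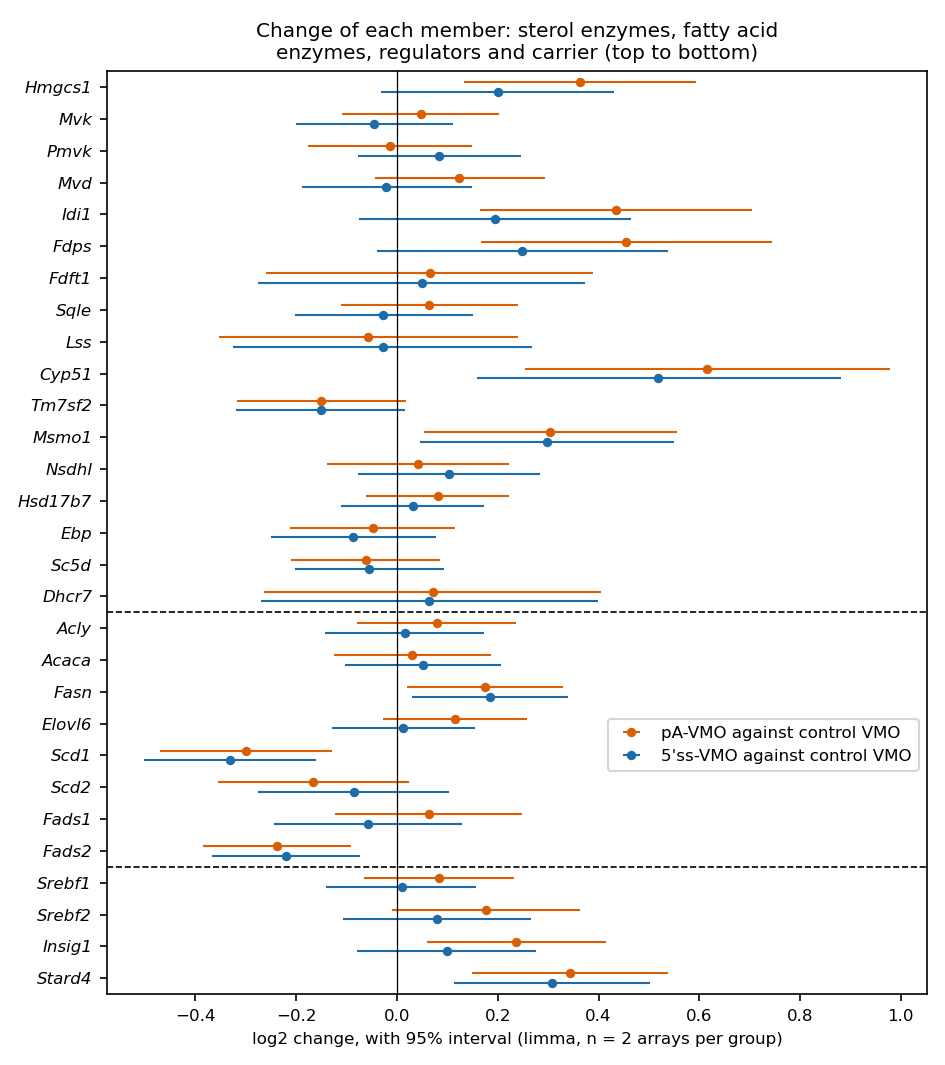
Points are the log2 change of each member against control VMO and bars its 95% interval from limma (n = 2 arrays per group); orange is pA-VMO and blue 5'ss-VMO. Intervals that do not reach 0 in both comparisons are those of Cyp51, Msmo1, Fasn, Scd1, Fads2 and Stard4; they are not adjusted for the number of genes tested.

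The branches were set side by side by the median over their members. Against control the 17 sterol enzymes had a median change of 0.065 with pA-VMO and 0.049 in the 5'ss-VMO group, and the 8 fatty acid enzymes 0.046 and -0.023, where all tested genes had 0.013 and 0.001. The sterol minus the fatty acid median of the gene changes was 0.019 with pA-VMO and 0.072 in the 5'ss-VMO group, and with pA-VMO its sign turned without control replicate 1 (-0.009). Taken array by array instead, as the sterol minus the fatty acid median of the deviations from each gene's mean over the arrays, it was -0.063 and -0.007 with control VMO, 0.081 and 0.028 with pA-VMO, and -0.036 and 0.151 with 5'ss-VMO. Both pA-VMO arrays lay above both control arrays, and the 5'ss-VMO arrays overlapped with control. On this scale the group means differed from control by 0.09 and 0.092, where the arrays of a group lay 0.056 apart with control VMO, 0.053 with pA-VMO and 0.187 in the 5'ss-VMO group. The size of the gap between the branches thus depended on how it was summarised, and no test is given for it. The steps within the branches, grouped after their values had been seen, differed more. With pA-VMO the 6 enzymes up to farnesyl diphosphate had a median of 0.24 and the 8 after lanosterol 0.06, while the 4 genes of chain building and elongation had 0.10 and the 4 desaturases -0.20. With 5'ss-VMO these medians were 0.14, 0.05, 0.03 and -0.15.

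Array by array, the deviation of each gene from its mean over the 6 arrays shows which arrays carry these medians. For the 6 enzymes up to farnesyl diphosphate the median deviation was -0.10 and -0.15 with control VMO, 0.15 and 0.12 with pA-VMO, and -0.12 and 0.12 with 5'ss-VMO. The pA-VMO arrays lay together above control, and the 5'ss-VMO arrays lay at opposite ends. For the 4 desaturases it was 0.15 and 0.09 with control VMO, -0.04 and -0.09 with pA-VMO, and -0.08 and -0.03 with 5'ss-VMO, so that here the 4 treated arrays lay together below control. Over all 17 sterol enzymes 5'ss-VMO replicate 2 exceeded replicate 1 for 13 (76.5%), with a median of -0.208 for replicate 1 minus replicate 2. It did so for 6 of the 8 fatty acid enzymes (75.0%), with a smaller median of -0.037, and for 50.8% of all tested genes. The sterol median with 5'ss-VMO was 0.195 without replicate 1 of that group and -0.012 without replicate 2. For Hmgcs1, Idi1 and Fdps the difference between 5'ss-VMO and control was 0.358, 0.401 and 0.448 without replicate 1, and 0.042, -0.012 and 0.049 without replicate 2. The mean level of 9 cell cycle genes also differed between these arrays, at 7.25 on 5'ss-VMO replicate 1 and 7.48 on replicate 2, against 7.05 to 7.07 with control VMO and 7.36 to 7.42 with pA-VMO; its part in the sterol values was not tested.

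**Figure D3:**
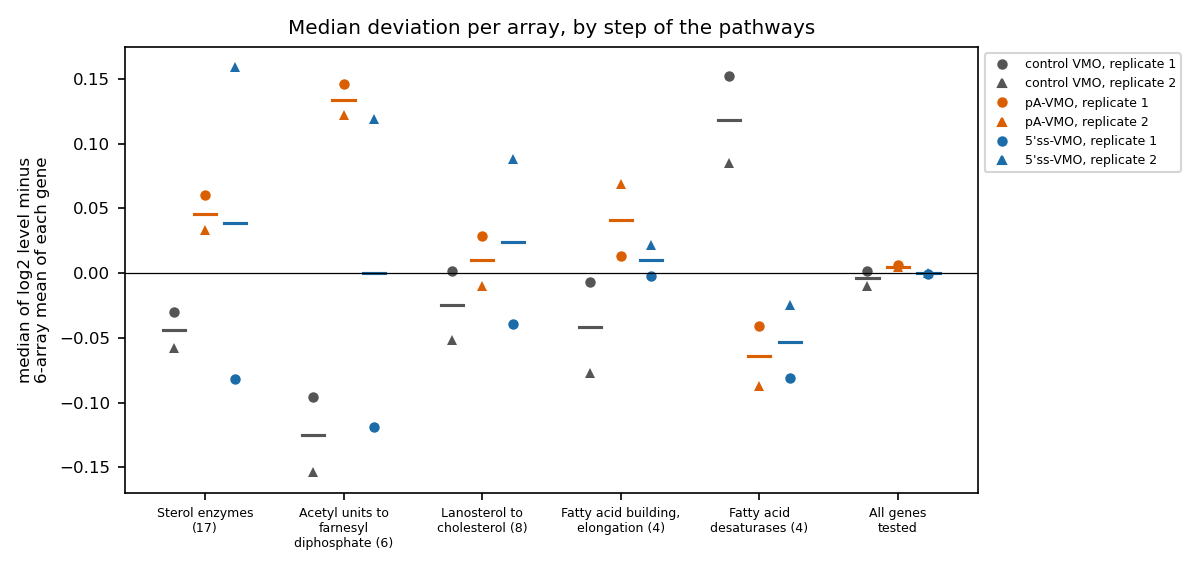
Each point is, for 1 array, the median over the genes of a set of the log2 level minus that gene's mean over the 6 arrays, with the number of genes in brackets; bars are group means. The 5'ss-VMO arrays of the sterol enzymes lie apart, at -0.082 and 0.159, while all 4 treated arrays of the desaturases lie below the control arrays and all genes tested lie near 0.

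Set against each other, pA-VMO and 5'ss-VMO gave no member with a difference that passed the test. The differences ran from -0.098 for Pmvk to 0.239 for Idi1 (limma adjusted p of 0.366 or more), and their 95% intervals reached from -0.328 to 0.509, which does not show that the reagents act alike. Idi1, Mvd and Insig1 had the smallest p values, at 0.24 ± 0.12, 0.145 ± 0.075 and 0.14 ± 0.08 higher with pA-VMO (limma adjusted p = 0.366, 0.377 and 0.427). Both pA-VMO arrays lay above both 5'ss-VMO arrays for 7 members (24.1%) and below for 1 (3.45%), against 25.5% and 23.7% of all genes. Hmgcs1 and Fdps came next in order of p after Elovl6, at 0.16 and 0.21, and if replicate 1 of 5'ss-VMO is left out these are 0.006 and 0.007.

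Other genes of lipid metabolism were read from fixed lists, and none of their members passed the test in any comparison either. Of other sterol synthesis genes 4 of 6 were measured, with a median change of 0.09 with pA-VMO. Of these Tmem97, a sterol-regulated membrane protein of the endoplasmic reticulum, differed by 0.19 with pA-VMO and 0.23 in the 5'ss-VMO group (limma adjusted p = 0.518 and 0.363). Ggps1, which draws farnesyl diphosphate away into geranylgeranyl diphosphate, lay at 7.57 and 7.47 with control VMO, 7.41 and 7.36 with pA-VMO, and 7.62 and 7.53 with 5'ss-VMO, so that pA-VMO was the low group. Of 14 other fatty acid synthesis genes, with a median of 0.001 with pA-VMO and -0.053 in the 5'ss-VMO group, Elovl7, an elongase of long saturated chains, differed most. It lay at 5.92 and 5.90 with control VMO, 5.45 and 5.63 with pA-VMO, and 5.55 on both 5'ss-VMO arrays, or -0.37 ± 0.08 and -0.36 ± 0.08 (limma adjusted p = 0.220 and 0.0853). Acacb, the mitochondrial acetyl-CoA carboxylase, differed by 0.21 between pA-VMO and 5'ss-VMO (limma adjusted p = 0.216).

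Some genes of sterol traffic and of SREBP and LXR control lay below control with pA-VMO, and others did not. Of the list for uptake, storage and efflux, 7 of 10 genes were measured, and 4 of the 7 lay below both control arrays on both pA-VMO arrays. Of 8 other genes that control SREBP and LXR, 6 were measured and 3 lay below in this way, where 18.8% of all genes did. Abca1 and Abcg1, the LXR-induced cholesterol exporters, are named because of their values. Abca1 lay at 9.05 and 9.02 with control VMO, 8.84 and 8.83 with pA-VMO, and 8.89 and 8.88 with 5'ss-VMO, and all treated arrays lay below control (-0.20 ± 0.06 and -0.14 ± 0.06, limma adjusted p = 0.314 and 0.348). Abcg1 lay at 7.96 and 8.06 with control VMO, 7.73 and 7.77 with pA-VMO, and 8.02 and 7.84 with 5'ss-VMO, lower by a mean log2 difference of -0.26 ± 0.08 with pA-VMO (limma adjusted p = 0.297). Mylip, an LXR-induced ubiquitin ligase that removes lipoprotein receptors, lay at 8.68 and 8.82 with control VMO, 8.51 and 8.38 with pA-VMO, and 8.73 and 8.65 with 5'ss-VMO. Its pA-VMO arrays were the lowest of the 6, at -0.31 ± 0.08 against control (limma adjusted p = 0.252) and -0.24 ± 0.08 against 5'ss-VMO (limma adjusted p = 0.194). Nr1h3, the gene of LXR alpha, differed by -0.16 with pA-VMO (limma adjusted p = 0.511). Of the members that LXRs also induce, Srebf1 differed by 0.08 and Scd1 by -0.30 in that comparison, so these did not share a direction. Apoe and Npc1, on the list for uptake, storage and efflux, overlapped with control in both comparisons. Apoe differed by 0.04 and Npc1 by 0.01 with pA-VMO, where the 5'ss-VMO group gave 0.03 and -0.01.

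In the same list Ch25h, which makes the LXR ligand and SREBP inhibitor 25-hydroxycholesterol, stood out with 5'ss-VMO. It lay at 7.29 and 7.32 with control VMO, 7.20 and 7.26 with pA-VMO, and 7.77 and 7.51 with 5'ss-VMO. The 5'ss-VMO arrays lay above the other 4, by 0.33 ± 0.09 against control (limma adjusted p = 0.161), and pA-VMO differed from 5'ss-VMO by -0.41 ± 0.09 (limma adjusted p = 0.0921). Npc2, the lysosomal cholesterol-binding protein, lay at 9.92 and 9.98 with control VMO, 10.01 and 10.05 with pA-VMO, and 10.16 and 10.21 with 5'ss-VMO. It was highest with 5'ss-VMO, by 0.230 ± 0.065 against control (limma adjusted p = 0.188). Ch25h and Npc2 are both abundant in macrophages, whose 10 markers had a mean level of 6.69 and 6.90 with control VMO, 7.00 and 6.98 with pA-VMO, and 7.09 and 7.06 with 5'ss-VMO; their part in these values was not tested.

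**Figure D4:**
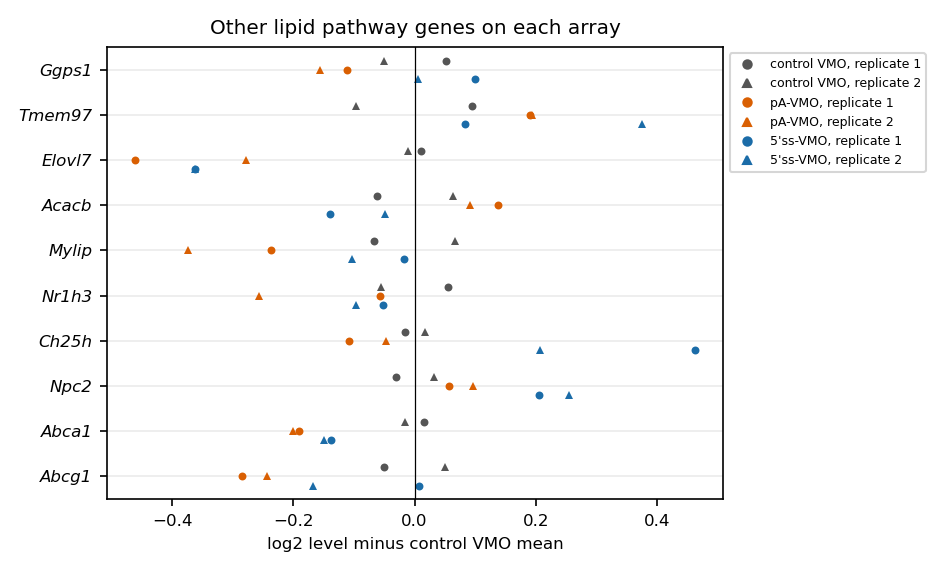
Each point is the log2 level of 1 gene on 1 array minus its control VMO mean, with colours for groups and shapes for replicates as before. Elovl7 and Abca1 lie to the left of control on all 4 treated arrays, Mylip and Abcg1 lie furthest left with pA-VMO, and Ch25h lies to the right with 5'ss-VMO.

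Markers of the cells were read alongside. All 8 measured of 9 FAP markers lay above the filter floor, with a mean level of 11.24 to 11.41 on the 6 arrays, and the list differed from control by -0.11 with pA-VMO and -0.13 in the 5'ss-VMO group. With 5'ss-VMO against control, 1 of 8 FAP markers and 2 of 10 macrophage markers passed the test. So did 1 of 5 endothelial markers tested and 1 of 7 satellite cell and myoblast markers, against 0.582% of all genes. No marker of the other lists passed, and none did with pA-VMO, where 0.00669% of all genes did. No test is given for these shares. The FAP marker Dpp4 fell by 0.52 ± 0.08 on the log2 scale (limma adjusted p = 0.0318). The endothelial cadherin gene Cdh5 rose by 0.70 ± 0.07 (limma adjusted p = 0.00551), and Chrna1, a subunit of the muscle acetylcholine receptor in the satellite cell and myoblast list, by 0.62 ± 0.09 (limma adjusted p = 0.0283). The macrophage complement genes C1qa and C1qc rose by 0.39 ± 0.07 and 0.50 ± 0.07 (limma adjusted p = 0.0472 and 0.0249). Of the 8 FAP markers 4 lay below both control arrays on both 5'ss-VMO arrays, and 1, Pdgfrb, lay above (0.14). Of the 6 endothelial markers 3 lay above and 1, Tek, below (-0.19). Above lay 8 of 10 macrophage markers and 6 of 7 satellite cell and myoblast markers, with 0 below in either list. Of all genes 23.2% lay above and 21.5% below. Adipocytes express the fatty acid enzymes strongly, and 8 of 9 adipocyte markers were measured. Of these 8 markers 6 lay above the floor of 5.209 in the mean over the arrays: Plin1, Cidec, Fabp4, Retn, Lipe and Pparg. Adipoq and Lep, which define mature adipocytes, lay below the floor, and Adipoq ran from 4.26 to 4.88. With pA-VMO 2 of the 8 adipocyte markers lay above both control arrays and 2 below, where 24.1% and 18.8% of all genes did. The largest difference was that of Fabp4, at 0.326 ± 0.096 (limma adjusted p = 0.295). The mean of the 8 adipocyte markers was 5.94 and 6.02 with control VMO, 6.10 and 6.01 with pA-VMO, and 5.85 on both 5'ss-VMO arrays. It differed from control by 0.08 with pA-VMO and by -0.12 in the 5'ss-VMO group. Endothelial markers and those of satellite cells and myoblasts differed from control by 0.32 and 0.37 with 5'ss-VMO and by 0.15 and 0.02 with pA-VMO, Schwann cell markers by -0.08 and -0.10, and muscle fibre, lymphocyte and neutrophil markers by at most 0.13. The 9 cell cycle genes differed by 0.33 with pA-VMO and 0.31 in the 5'ss-VMO group, with all 9 above 0 in both. The part of these cells and of the cell cycle in the members' values was not tested.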

How the data were processed

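Values for 35556 probe sets on 6 Affymetrix Mouse Gene 1.0 ST arrays were used, 2 per group, from pools of 4 mice each. Per the submitters' processing notes, the authors made the deposited log2 values with Affymetrix Expression Console by RMA, which corrects background, equalises the arrays' distributions and summarises probes; no version is given in the sources used here. Such scaling hides changes in total RNA and compresses changes of dim genes. The values ran from 1.38 to 13.5 and any 2 arrays correlated at 0.99 or more over probe sets. Precision is limited by the number of arrays: the median SE of a change was 0.07, and the smallest p that exactly permuting 2 against 2 arrays allows is 0.333.

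Of the probe sets, 21789 had 1 symbol in the platform annotation, 1621 several and 12146 none; only those with 1 symbol were named, giving 19938 genes, and all 29 members measured matched a RefSeq symbol. The highest-mean probe set was kept for 999 genes with several. Genes under the 25th percentile of the gene means were left out. The 3 comparisons come from 1 linear model (limma 3.58.1, R 4.3.3, moderated by eBayes) over all 6 arrays without a block, with 3 residual and 6.06 prior degrees of freedom; p values are two-sided and adjusted by Benjamini-Hochberg over all 14953 genes tested. The fit was tested on simulated data.

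The members and all lists were chosen with earlier results of these data known. Named with each array's value are the 6 members of smallest p in each comparison and the 4 regulators and carrier; of other lists the 2 genes of smallest p are named. Fdft1, Lss, Dhcr7, Tm7sf2, Scd2, Abca1, Abcg1, Apoe, Cyp27a1, Npc1, Insig2, the single markers and the grouping by step were chosen after values were seen. Medians take all measured members. Alternatives were the filter, the probe set rule, centring, the spread estimate, 2-group fits, the replicate block and leaving out each array. Replicate numbers gave no pairing: deviations of same-numbered arrays correlated over genes at -0.102, 0.021 and -0.035.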

Additional observations from a re-analysis of the deposited data

How the results depend on the processing

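The number of members that passed the limma threshold stayed at 0 for pA-VMO against control VMO and between the 2 reagents under all alternatives run. For 5'ss-VMO against control VMO it was 1 (Scd1) with only genes above the median level tested and 1 with the trended robust spread, and 0 under the others. The cause was not tested. For pA-VMO against control VMO 22 of 29 members kept their sign under all alternatives, for 5'ss-VMO against control VMO 16, and between the reagents 14; the members' adjusted p values ran from 0.0704 to 0.998, 0.0153 to 0.999 and 0.121 to 0.999.

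The count over all genes moved more. For pA-VMO against control VMO it was 1, and 0 without a filter, 49 with the trended robust spread, and 0 to 2 without 1 array. For 5'ss-VMO against control VMO it was 87, and 24 without a filter, 181 above the median level, 265 with the trended robust spread, and 8 to 76 without 1 array. For pA-VMO against 5'ss-VMO it was 9, and 3 without a filter, 102 above the median level, 15 with probe sets averaged, 111 after centring, 186 with the trended robust spread, 23 with the replicate block, and 1 to 18 without 1 array. The replicate block gave 1 and 90 in the comparisons with control and called no member. Crossed replicate numbers, added after seeing the data, also gave 1 gene and 0 members for pA-VMO.

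Medians over a branch did not depend on the filter by construction. Without 1 array, the sterol median ran from 0.027 to 0.085 (pA-VMO against control VMO), -0.012 to 0.195 (5'ss-VMO against control VMO) and 0.005 to 0.137 (between the reagents), the fatty acid median -0.001 to 0.094, -0.067 to 0.017 and -0.002 to 0.022, and the sterol minus fatty acid median -0.009 to 0.055, 0.052 to 0.190 and -0.017 to 0.123. The 2 arrays per group limit all of these.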
